A study of Arabidopsis thaliana with 12 samples.

Results

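Seedlings lacking the auxin response factor ARF2 were compared directly with seedlings lacking the GATA factors GNC and GNL. The comparison took the 3 arrays whose genotype label was arf2-8 (written arf2 here) and the 3 arrays labelled gnc gnl, 6 of the 12 arrays of the series, and covered every gene on the array. The other arrays were wild type (WT) and libraries labelled arf2-8 gnc gnl, and none of them entered the test. Both mutants were whole seedlings of Arabidopsis thaliana, ecotype Col-0, harvested untreated at 10 days, around midday of a long day (16 h of light, 8 h of dark) on GM medium. Per the series design, the 3 arrays of each genotype came from separate biological material. The labels name arf2-8 as the allele of ARF2 and give no allele names for gnc and gnl, and no group carried a transgene in the labels. Whole seedlings were extracted, so fewer cells of a type and less RNA per cell cannot be told apart in any value below.

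ARF2 belongs to the auxin response factors, which bind auxin-responsive promoters. It acts mainly as a repressor and is known for limiting organ size and for promoting leaf ageing and floral organ abscission. GNC and GNL (also named CGA1) are paired class B GATA factors that promote chlorophyll synthesis and chloroplast growth and division, and that act downstream of gibberellin, auxin and cytokinin signals.

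A level is given below as the log2 processed signal of a probe relative to the 75th percentile of its array, so 0 is the signal of that percentile. A difference is the mean log2 level of arf2 minus that of gnc gnl, with its standard error (SE) from limma and a p-value adjusted by the Benjamini-Hochberg method over all 18748 genes tested. A gene passed at an adjusted p under 0.05. Levels of different genes come from different probes and are not compared. The 75th percentile of the processed signal was 2068 to 2871 on the 6 arrays, 64.6% to 68.3% of spots were well above background, and no probe used was saturated. Log2 levels correlated across genes at 0.988 to 0.995 within a genotype and at 0.960 to 0.971 between them. Arf2 replicate 1 lay on slide 1, arf2 replicates 2 and 3 on slide 2, and all gnc gnl arrays on slide 3, so within these 6 arrays slide and genotype cannot be told apart. A fit over all 12 arrays can hold slide as a block only through the libraries labelled arf2 gnc gnl. Of these, replicates 1 and 2 lay on slide 2 and replicate 3 on slide 3, so every slide-block difference rests on 1 such array for slide 3. In these libraries ARF2 stood at 55.1% to 71.1% of WT, GNL at 169% to 182% and GNC at 5.2% to 9.8%. Their genotype is thus in doubt for ARF2 and GNL. The median SE of that fit was 0.175, beside 0.107 without the block, and its counts are given beside the lists described.

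The mutated genes were read first, because they check the labels. ARF2 (AT5G62000) stood at -4.70, -7.11 and -4.16 in the 3 arf2 arrays, and it was well above background only in replicate 3. In gnc gnl the ARF2 level was 0.76, 0.97 and 0.63, and the difference, set in part by signals near background, was -6.11 ± 0.70 (SE, n = 3 arrays per genotype, limma, adjusted p = 0.00278). GNC (AT5G56860) stood at 0.69, 0.80 and 0.77 in arf2. In gnc gnl its level was -3.89, -3.48 and -4.10, a difference of 4.57 ± 0.16 (adjusted p = 1.67e-04), and a second GNC probe gave a difference of 5.18. GNL (AT4G26150) read -2.24, -2.12 and -1.85 in arf2 and was not well above background on any gnc gnl array, so it was at least 10.8-fold higher in arf2 (adjusted p = 0.00106). Each of these genes was low in all 3 arrays of the mutant named after it and its arrays did not overlap between the genotypes. All 3 calls also passed with slide as a block.

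**Figure D1:**
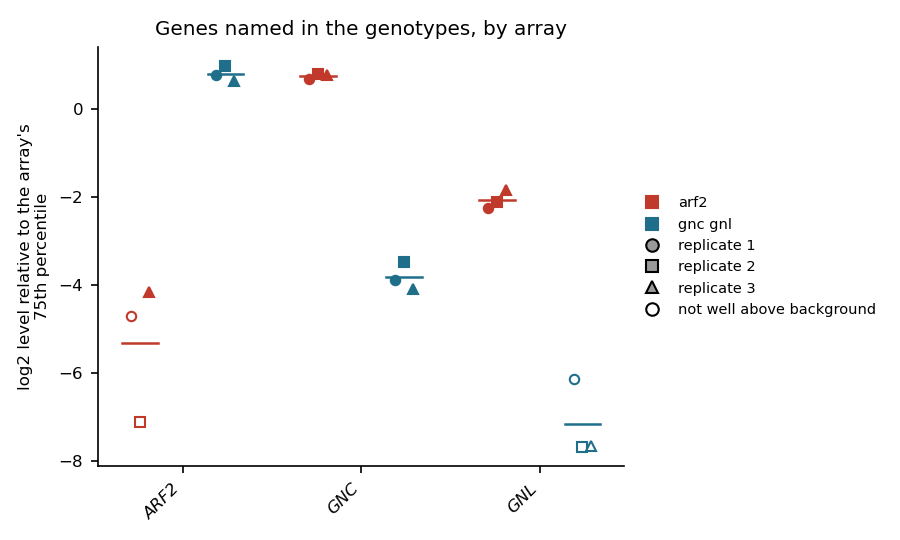
Log2 level of ARF2, GNC and GNL relative to the array's 75th percentile (vertical axis) in each arf2 and gnc gnl array. Symbols mark replicates, open symbols mark spots not well above background, and lines are means; ARF2 lay between -7.11 and -4.16 in arf2, and GNC between -4.10 and -3.48 in gnc gnl.

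Of the 18748 genes, 4784 (25.5%) differed between the mutants, 2272 (12.1%) higher in arf2 and 2512 (13.4%) lower. With a log2 difference of at least 1 as well, 906 genes remained (4.83%), 364 higher in arf2 (1.94%) and 542 lower (2.89%). The median difference over all genes was -0.00044, with quartiles of -0.22 and 0.21, and the arrays of the genotypes did not overlap for 45.9% of genes. Without arf2 replicate 2 the count of differing genes was 1753, and without arf2 replicate 1 it was 2981. With the slide block over the 12 arrays it was 630, while 4662 of the 4784 genes kept their sign.

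**Figure D2:**
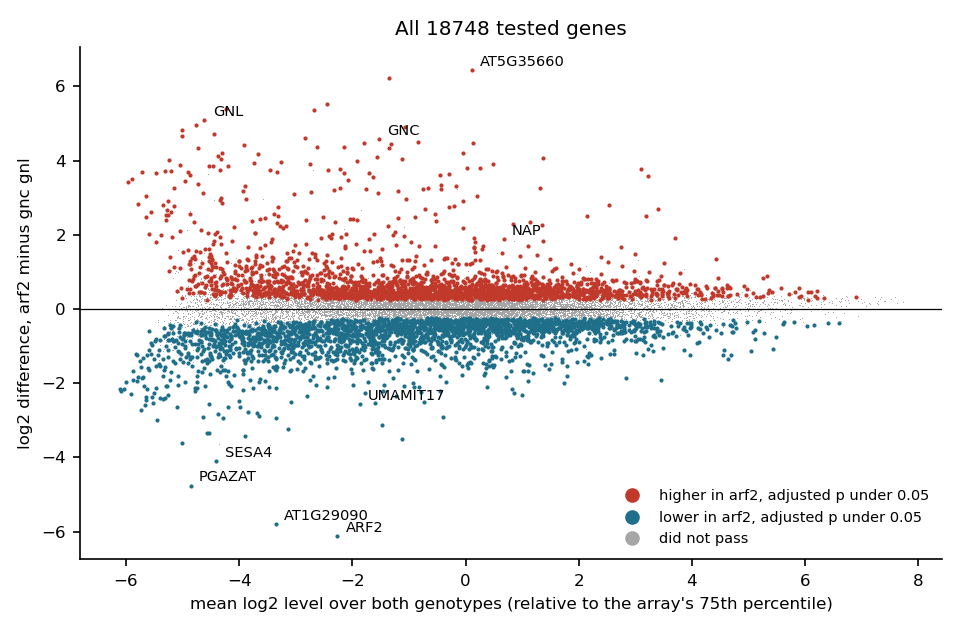
Difference between arf2 and gnc gnl (vertical axis, log2) against the mean log2 level over both genotypes (horizontal axis, relative to the array's 75th percentile) for all 18748 tested genes, one point per gene. Red points were higher and blue points lower in arf2 at an adjusted p under 0.05; fitted differences ran from -6.11 for ARF2, near background on 2 of its arf2 arrays, to 6.44 for AT5G35660.

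Among genes well above background on all 6 arrays, the 10 with the largest difference toward arf2 lay between 4.11 and 6.44. AT5G35660 read 3.5, 3.75 and 2.75 in arf2 against -3.06, -1.86 and -4.39 in gnc gnl, a difference of 6.44 ± 0.61 (adjusted p = 0.00171), and 4.03 on its other probe. AT1G47980 followed with 1.43, 1.59 and 1.16 against -4.25, -2.44 and -3.87, a difference of 4.91 ± 0.44. No array of arf2 overlapped one of gnc gnl for either gene, which the choice of the 10 required. The gnc gnl arrays were spread more widely than those of arf2. GNC itself was among the 10. The oil body gene AT1G05510 (OBAP1a) and the desiccation-induced gene DSI-1VOC (AT1G07645) also belonged to the 10, with differences of 4.45 ± 0.63 and 4.11 ± 0.48. The other 5 were AT5G44310, AT3G53040, AT3G58450, AT5G45690 and AT1G04560, to which no name is given here. In gnc gnl their levels were spread over at least 1 log2 unit between arrays. Under the slide block, 3 of the 10 passed (AT5G35660, AT1G47980 and GNC), and all 10 kept their sign.

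Beside GNL, 5 genes had the largest bounds among those not well above background on any gnc gnl array. AT3G22490 was at least 15.5-fold higher in arf2, where it read -1.19, -1.22 and -2.22 (adjusted p = 0.00181). AT3G19920, AT5G55750, AT2G19320 and AT1G17010 were at least 10.7-fold, 9.62-fold, 9.34-fold and 9.10-fold higher. The arf2 arrays of these 5 genes all lay between -2.83 and -1.19, and replicate 3 was the lowest of the 3 for each. With GNL, 5 of these 6 genes passed with slide as a block, all but AT5G55750.

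Among genes well above background on all 6 arrays, the 10 furthest in the other direction included cell wall, protease and transporter genes. AT2G34080 had the largest difference of these 10, reading -3.16, -3.10 and -2.36 in arf2 against 0.32, 0.82 and 0.78 in gnc gnl (-3.51 ± 0.24, adjusted p = 6.32e-04). The pectin methylesterase family gene ATPMEPCRD (AT2G43050), whose family modifies wall pectin, read -3.35, -3.09 and -2.65 against 0.26, -0.07 and 0.06, an 8.67-fold difference (adjusted p = 4.21e-04). Both genes were low on every arf2 array. UMAMIT17 (AT4G08300), of a family of amino acid and metabolite transporters, read -2.92, -3.27 and -3.26 against -0.45, -0.66 and -0.65 (-2.56 ± 0.12, adjusted p = 3.12e-04). The cysteine endopeptidase CEP1 (AT5G50260), known from developmental cell death, differed by -2.53 ± 0.16, and the cysteine proteinase CP1 (AT4G36880) by -2.36 ± 0.20. BGAL4 (AT5G56870), a beta-galactosidase, stood at -0.29, -0.45 and 0.26 in arf2 and at 2.35, 2.27 and 1.86 in gnc gnl, a difference of -2.32 ± 0.21. AT1G27020, AT5G36130, AT5G47980 and AT2G25150 made up the 10, with differences from -2.90 to -2.33. Of these 10 genes, 9 passed with slide as a block, all but AT5G36130.

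Against arf2 arrays on which they were not well above background, 6 genes had the largest bounds. AT1G29090 read -0.74, 0.08 and -0.70 in gnc gnl and was at least 22.1-fold lower in arf2 (adjusted p = 5.71e-04). PGAZAT (AT2G41850), a polygalacturonase of abscission and dehiscence zones, read -2.84, -2.09 and -2.51 and was at least 5.43-fold lower in arf2 (adjusted p = 2.37e-04). The mitochondrial import gene TIM17-1 (AT1G20350) was at least 4.19-fold lower, the cytochrome P450 gene CYP716A2 (AT5G36140) at least 4.09-fold and AT4G15690 at least 4.08-fold lower. The gnc gnl arrays of TIM17-1 lay between -3.06 and -2.75, while those of CYP716A2 ran from -4.16 to -1.93. The sixth, the albumin gene SESA4, is described with the seed genes. TIM17-1 and CYP716A2 did not pass with slide as a block (adjusted p = 0.0737 and 0.067 in limma), and CYP716A2, AT4G15690 and SESA4 did not pass under normexp background correction (adjusted p = 0.105, 0.157 and 0.215).

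Seed storage and maturation genes were among the widest differences, most of them toward arf2. These genes encode the reserves, oil body coats and protective proteins of the ripening embryo and normally decline after germination. Of 24 tested members of the list, 13 were higher in arf2 and 1 was lower, beside 12.1% and 13.4% of all genes. The median difference was 2.26 beside -0.00044 over all genes. M17 (AT2G41260), a late embryogenesis abundant gene, read 3.18, 2.99 and 2.70 in arf2 and -0.81, 0.28 and -0.42 in gnc gnl, a 9.68-fold difference (3.27 ± 0.27, adjusted p = 0.00122). PER1 (AT1G48130), a seed peroxiredoxin, read 2.4, 2.35 and 1.75 against -1.71, -0.82 and -2.4 (3.81 ± 0.39, adjusted p = 0.00212). ECP63 (AT2G36640), another late embryogenesis abundant gene, differed by 3.33 ± 0.41 and ABI5 (AT2G36270), a bZIP factor of abscisic acid signalling in seeds, by 2.02 ± 0.29. Every arf2 array lay above every gnc gnl array for these 4 genes, which were picked by smallest p.

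The following seed genes were chosen after their values were seen. The cruciferin gene CRA1 (AT5G44120) read 5.17, 5.31 and 4.55 in arf2 against 2.98, 1.69 and -0.40 in gnc gnl, a difference of 3.59 ± 0.78 (adjusted p = 0.0189). CRU3 (AT4G28520), a second cruciferin, read 5.12, 5.32 and 4.5 against 3.16, 1.27 and -0.81 (3.77 ± 0.90, adjusted p = 0.025). The gnc gnl arrays of these genes were spread over more than 3 log2 units, with replicate 1 highest and replicate 3 lowest, and none reached an arf2 array. OLEO2 (AT5G40420), an oil body coat protein, followed the same order in gnc gnl at -0.60, -1.95 and -3.73, against 1.45, 1.3 and 0.98 in arf2 (3.34 ± 0.70, adjusted p = 0.0174). ABI3 (AT3G24650), the master regulator of seed maturation, was higher in arf2 by 1.63 ± 0.29, and EM1 (AT3G51810), one of its targets, by 4.46 ± 0.71.

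A pair of storage genes went the other way. The 2S albumin gene SESA4 (AT4G27170) was not well above background on any arf2 array and read 0.32, -3.47 and -3.93 in gnc gnl, at least 5.89-fold higher there (adjusted p = 0.0309). Its fitted difference was -4.09, and -2.75 without gnc gnl replicate 1, where it still passed. Without arf2 replicate 1 or 2 SESA4 did not pass (adjusted p = 0.0871 and 0.0869 in limma). CRU2 (AT1G03880), a cruciferin chosen after its values were seen, also stayed below background in arf2 and read 1.66, -2.78 and -3.72 in gnc gnl, and did not pass (difference -3.70 ± 1.27, adjusted p = 0.0736). Gnc gnl replicate 1 was far above the other 2 arrays for both genes. The albumin genes SESA1, SESA2 and SESA3, also chosen after their values were seen, differed by 0.48, 0.89 and -0.49 and did not pass, while SESA5, chosen in the same way, was higher in arf2 by 1.74 ± 0.49 (adjusted p = 0.042).

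Over the 10 seed markers, 7 were higher in arf2, and their summed linear signal was 59.0 to 98.4 times the 75th percentile in arf2, 3.2 to 26.7 times in gnc gnl and 1.81 to 2.35 times in WT. Seed markers thus moved with the comparison and their part in the other results was not tested. The number of members that passed was 7 without arf2 replicate 1, 7 without arf2 replicate 2 and 22 without gnc gnl replicate 1. With slide as a block the median was 1.36 and 2 members passed, M17 and SESA4. The SESA4 difference was then -9.66, beside -4.09 without the block, a wider gap than between any arf2 array and any gnc gnl array.

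**Figure D3:**
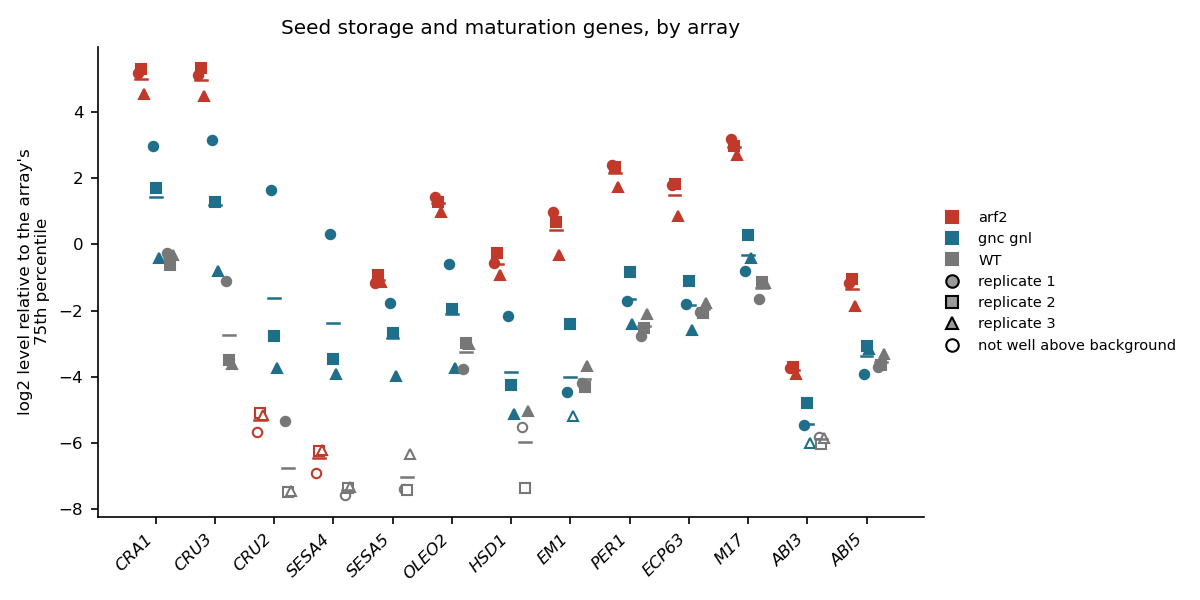
Log2 level of 13 seed storage and maturation genes relative to the array's 75th percentile (vertical axis) in each array of arf2, gnc gnl and, for reference, WT. Symbols mark replicates, open symbols spots not well above background, lines means; the gnc gnl arrays spread widely for CRA1, from -0.40 to 2.98, while the arf2 arrays lay between 4.55 and 5.31.

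Genes of abscisic acid and cold responses also leaned toward arf2. Of 27 tested members, 16 were higher in arf2 and 1 lower, beside 12.1% and 13.4% of all genes, with a median of 0.88. AHG1 (AT5G51760), a seed-type protein phosphatase that restrains abscisic acid signalling, read -2.1, -2.16 and -2.91 in arf2 and -5.72, -4.79 and -5.59 in gnc gnl, where 1 of 3 arrays was well above background (2.98 ± 0.31, adjusted p = 0.00213). COR15B (AT2G42530), a chloroplast protein induced by cold, read -0.38, -0.43 and -1.59 against -5.53, -3.91 and -4.69 (3.91 ± 0.47, adjusted p = 0.00331). The dehydrin gene RAB18 (AT5G66400) read 4.99, 4.75 and 4.23 against 2.3, 3.18 and 2.73, a 3.78-fold difference (adjusted p = 0.005). In these 3 genes arf2 replicate 3 was the lowest of its genotype and still above every gnc gnl array. The exception was GOLS3 (AT1G09350), a cold-responsive galactinol synthase that was lower in arf2 (-1.39 ± 0.19, adjusted p = 0.005). Under normexp background correction GOLS3 differed by -0.48 and did not pass (adjusted p = 0.277 in limma). AHG1 and COR15B entered the test through arf2 alone and GOLS3 through gnc gnl alone, in each case the genotype where they were high. The number that passed was 9 and 8 without arf2 replicate 1 or 2, 11 and 10 without gnc gnl replicate 1 or 3, and 1 (COR15B) with slide as a block.

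Some genes of the photosynthetic apparatus were higher in arf2, by less than 1 log2 unit. All 21 light-harvesting genes tested had a difference above 0, with a median of 0.30, and 6 passed, all higher in arf2. LHCB2.1 (AT2G05100), a light-harvesting protein of photosystem II, read 2.07, 2.04 and 1.93 in arf2 and 1.11, 1.2 and 1.35 in gnc gnl, a 1.74-fold difference (0.80 ± 0.09, adjusted p = 0.00298), while its other probe gave a difference of 0.21. LHCB7 (AT1G76570) and LHCA6 (AT1G19150) differed by 0.61 ± 0.09 and 0.62 ± 0.12, and LHCB2.3 (AT3G27690) by 0.56 ± 0.11. All 22 photosystem subunit genes also lay above 0, with a median of 0.23, and 3 passed (PSAD2, PSAL and PSAH2, by 0.52, 0.40 and 0.43). Of 21 Calvin cycle and photorespiration genes, 3 passed (FBA1, CP12-2 and HPR, by 0.47, 0.48 and 0.36), all 21 lay above 0 and the median was 0.20. The photosystem and Calvin cycle counts lie near the 12.1% of all genes that were higher in arf2. Under normexp background correction 3, 0 and 1 members of the 3 lists passed. These medians were smaller under quantile normalization, at 0.11, 0.035 and 0.051. In the same order, 2, 0 and 0 members passed without arf2 replicate 2 and 4, 0 and 1 without arf2 replicate 1; for the photosystem list the count was 0 without gnc gnl replicate 1 or 2 and 5 without replicate 3. With the slide block, LHCB2.1 alone passed of these lists.

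Chlorophyll and haem synthesis showed larger single differences. Of 28 tested members 10 were higher in arf2 and 1 lower, beside 12.1% and 13.4% of all genes, with a median of 0.29. The light-dependent protochlorophyllide oxidoreductases turn protochlorophyllide into chlorophyllide, and PORA (AT5G54190) read -1.97, -1.86 and -2.68 in arf2 against -4.05, -4.64 and -4.5 in gnc gnl (2.23 ± 0.25, 4.69-fold, adjusted p = 0.00259). PORC (AT1G03630) read 3.59, 3.42 and 3.19 against 2.60, 2.58 and 2.62 (0.80 ± 0.11, adjusted p = 0.00491). CAO (AT1G44446), which makes chlorophyll b, and CRD1 (AT3G56940), a subunit of the cyclase step, were higher in arf2 by 0.53 ± 0.08 and 0.57 ± 0.09. The arf2 arrays of these 4 genes, picked by smallest p, lay above all gnc gnl arrays. HEMA2 (AT1G09940), a glutamyl-tRNA reductase chosen after its values were seen, was the member lower in arf2 (-0.36 ± 0.07, adjusted p = 0.0148). In place of 11, the count was 5 and 4 without arf2 replicate 1 or 2, 7 without any 1 of the gnc gnl arrays, 6 under normexp background correction and 1 (PORC) with slide as a block.

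Regulators of greening and the plastid division machinery leaned the same way. Of 15 regulators tested, 7 were higher in arf2 and 1 lower, beside 12.1% and 13.4% of all genes, with a median of 0.17. SIG4 (AT5G13730), a plastid RNA polymerase sigma factor, read 0.87, 0.98 and 0.96 in arf2 against -0.09, 0.14 and 0.07 in gnc gnl (0.89 ± 0.09, adjusted p = 0.00196). GLK1 (AT2G20570), a GARP factor that drives chloroplast development, read 2.51, 2.48 and 2.22 against 1.46, 1.8 and 1.76 (0.73 ± 0.13, adjusted p = 0.00937). Its paralogue GLK2 (AT5G44190) and the sigma factor SIG2 (AT1G08540) differed by 0.37 ± 0.07 and 0.50 ± 0.09. PIF3 (AT1G09530), a phytochrome-interacting repressor chosen after its values were seen, was lower in arf2 (-0.36 ± 0.11, adjusted p = 0.0472). All 12 chloroplast division genes lay above 0 with a median of 0.33, and 6 passed, among them MINE1, ARC5, ARC6 and ARC3, by 0.53, 0.38, 0.39 and 0.34. The summed signal of 5 mesophyll markers was 659 to 684 times the 75th percentile in arf2 and 530 to 627 times in gnc gnl, and 1 of the 5 passed (LHCB2.1); its part in these differences was not tested. Of the regulators, 4 and 2 passed without arf2 replicate 1 or 2, 5 without any 1 of the other 4 arrays, 5 under normexp background correction, and SIG4 and GLK2 with slide as a block. Of the division genes, 2 and 1 passed without arf2 replicate 1 or 2, 3 without gnc gnl replicate 1 or 2, 3 under normexp background correction and 1 with slide as a block.

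**Figure D4:**
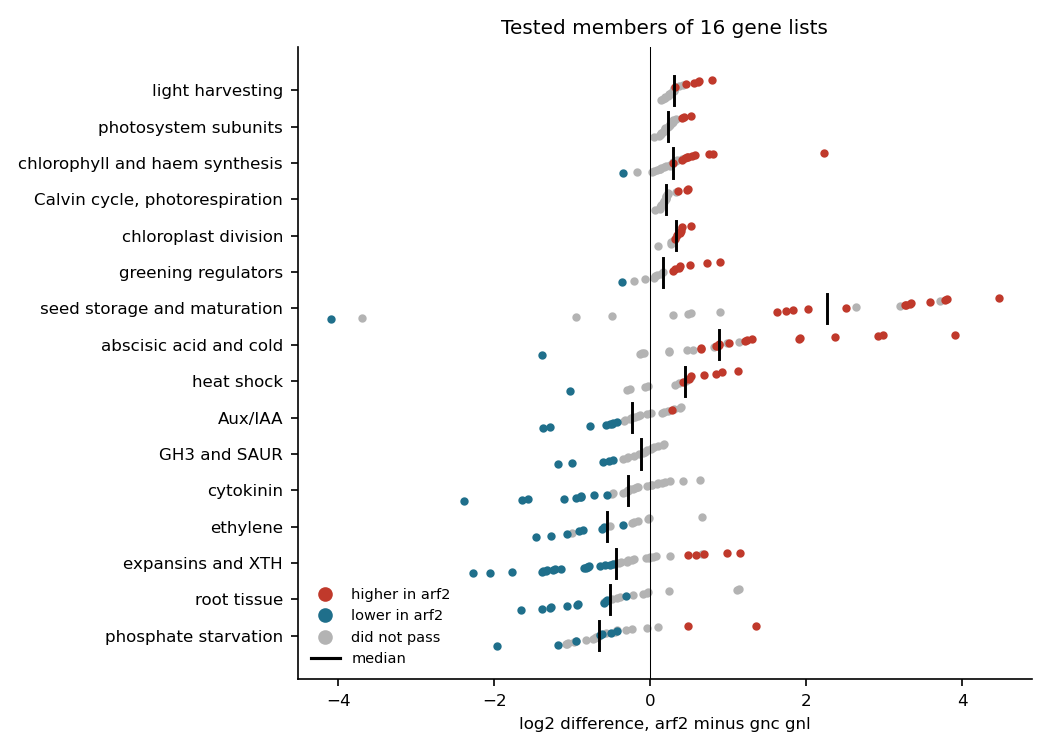
Log2 difference between arf2 and gnc gnl (horizontal axis) for each tested member of 16 gene lists, one point per gene, with black lines at the list medians. Red and blue points passed at an adjusted p under 0.05; medians ran from -0.66 for phosphate starvation to 2.26 for seed storage and maturation.

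The relatives of the mutated genes were read next. Beside GNC and GNL, GATA15, GATA16 and GATA17 passed among the other class B GATA genes. GATA15 (AT3G06740) read -0.03, 0.12 and 0.05 in arf2 against 0.50, 0.28 and 0.45 in gnc gnl (-0.37 ± 0.09, adjusted p = 0.0282). GATA16 (AT5G49300) was not well above background on any arf2 array, so that it entered the test through gnc gnl alone, and was at least 1.48-fold lower in arf2 (adjusted p = 0.00354), and GATA17, chosen after its values were seen, differed by -0.32 ± 0.08 (adjusted p = 0.0312). The GATA16 difference changed sign under normexp background correction, to 0.085. Among the other auxin response factors, ARF18 (AT3G61830) read -1.24, -1.11 and -1.47 against -2.02, -1.88 and -1.94 (0.67 ± 0.11, adjusted p = 0.0079). ARF1 (AT1G59750) and ETT (AT2G33860), like ARF2 members of the repressing branch of the family, were higher in arf2 by 0.37 ± 0.09 and 0.29 ± 0.09. The other 11 tested auxin response factors did not pass. The 4 of 15 that passed, ARF2 among them, are a share near the 25.5% of all genes. Leaving out any 1 array except gnc gnl replicate 2 left 3 of the 5 GATA calls, and 2 of the 4 auxin response factor calls were left without arf2 replicate 2 or 3 or gnc gnl replicate 1 or 3. With slide as a block, GNC, GNL and GATA16 passed of the GATA list, and ARF2 alone of the auxin response factors (in limma, adjusted p = 0.0897 for ARF18, 0.113 for ARF1 and 0.199 for ETT). ETT did not pass under normexp background correction either (adjusted p = 0.15 in limma).

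Among auxin-responsive genes, most of those that passed were lower in arf2. The Aux/IAA proteins repress auxin response factors and most are themselves induced by auxin; of 25 tested, 8 were lower in arf2 and 1 higher, with a median of -0.24. Under normexp background correction 4 passed, all lower, and the median was -0.054. IAA5 (AT1G15580) read -1.86, -1.92 and -1.58 in arf2 against -1.3, -0.85 and -0.89 in gnc gnl (-0.77 ± 0.15, adjusted p = 0.0142). IAA17 (AT1G04250) read 3.65, 3.49 and 3.71 against 3.97, 4.09 and 4.26 (-0.49 ± 0.11, adjusted p = 0.0189), and IAA26 (AT3G16500) differed by -0.43 ± 0.08. IAA31 (AT3G17600) was at least 1.23-fold lower in arf2, where no array was well above background, but its difference changed sign to 0.11 under normexp background correction. IAA31 entered the test through gnc gnl alone. Among 20 GH3 and SAUR genes 5 were lower in arf2 and none higher, with a median of -0.12, a share of calls near the 25.5% of all genes. SAUR9 (AT4G36110) and SAUR15 (AT4G38850), small auxin-induced growth genes, differed by -1.0 ± 0.15 and -1.18 ± 0.21, and GH3.3 (AT2G23170), which conjugates auxin to amino acids, by -0.53 ± 0.10. In place of 9 Aux/IAA genes, 0 passed in limma without arf2 replicate 2, 5 without gnc gnl replicate 1 and 4 without gnc gnl replicate 3, and 3 of the 5 GH3 and SAUR genes passed without arf2 replicate 2. Under the slide block no gene of these lists passed.

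Cytokinin genes that passed were all lower in arf2. The list joins synthesis, breakdown and the type-A response regulators, which cytokinin induces and which damp its signal. Of 32 tested members 10 were lower in arf2 and none was higher, beside 13.4% and 12.1% of all genes, with a median of -0.29. LOG2, CYP735A1 and CYP735A2 were among the 10 and met the filter on dim probes through gnc gnl alone, the genotype in which they were high. ARR6 (AT5G62920), a type-A regulator, read -1.48, -1.71 and -1.26 in arf2 against -0.48, -0.27 and -0.40 in gnc gnl, a 2.15-fold difference (-1.10 ± 0.13, adjusted p = 0.003). CKX1 (AT2G41510), a cytokinin oxidase, read -4.11, -4.23 and -4.32 against -3.30, -3.26 and -3.25 (-0.95 ± 0.08, adjusted p = 0.00138). The arrays of each genotype lay within 0.5 of each other for both genes. LOG2 (AT2G35990), a cytokinin-activating enzyme, was not well above background in arf2 and was at least 1.11-fold lower there. CYP735A1 (AT5G38450), which makes trans-zeatin precursors, was likewise below background in arf2, and its paralogue CYP735A2 (AT1G67110), chosen after its values were seen, was at least 1.64-fold lower in arf2 (adjusted p = 0.00499). The other members that passed were ARR5, ARR3, ARR15, IPT3 and IPT5, by -0.56 to -0.90, also chosen after their values were seen. Under normexp background correction 3 members passed and the median was -0.10. There LOG2 differed by -0.12, CYP735A1 by -0.03 and CKX1 by -0.30, and CKX1 did not pass (adjusted p = 0.306 in limma). With slide as a block 2 members passed, among them ARR6, and CKX1 did not (adjusted p = 0.0558 in limma).

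The ethylene synthesis and receptor genes that passed were also lower in arf2. Of 16 tested members 8 were lower and none higher, beside 13.4% and 12.1% of all genes, with a median of -0.56. ACS7 and ACS4 were among the 8 and met the filter on dim probes through gnc gnl alone, the genotype in which they were high. ACS enzymes make the ethylene precursor, and ACS7 (AT4G26200) read -5.28, -5.32 and -4.82 in arf2 against -4.01, -3.73 and -3.86 in gnc gnl (-1.27 ± 0.15, adjusted p = 0.0033). It was well above background on 1 of the 3 arf2 arrays, and under normexp background correction it differed by -0.22 and did not pass (adjusted p = 0.653 in limma). The receptor genes ERS1 (AT2G40940) and ETR2 (AT3G23150) differed by -0.59 ± 0.07 and -0.86 ± 0.13. ERS1 read 0.40, 0.39 and 0.46 in arf2 and 1.0, 1.02 and 0.99 in gnc gnl, the closest replicates of these 3 genes. ACS4, ACS5, ACO4 and ERS2, chosen after their values were seen, also passed, ACS4 as at least 1.43-fold lower and the others by -0.91, -0.61 and -0.36. The receptor genes ETR1 and EIN4, chosen in the same way, did not pass, with differences of -0.02 and -0.21. The count was 4 without arf2 replicate 2, 5 without gnc gnl replicate 1 or 3, 4 under normexp background correction and 0 in limma with slide as a block, where the median was -0.26.

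Wall-loosening genes were the longest list and gave the most calls of the lists by count, though not by share. Over all genes 13.4% were lower in arf2 and 12.1% higher. Expansins and xyloglucan endotransglucosylases (XTH) loosen and rebuild the wall during cell growth; of 41 tested, 19 were lower in arf2 and 5 higher, with a median of -0.45. XTH17 (AT1G65310) read -2.91, -2.94 and -2.88 in arf2 against -1.75, -1.65 and -1.67 in gnc gnl (-1.22 ± 0.07, adjusted p = 4.21e-04). XTH18 (AT4G30280) read 1.38, 1.29 and 1.52 against 2.62, 2.89 and 2.84 (-1.39 ± 0.11, adjusted p = 8.84e-04). XTH19 (AT4G30290) and XTH15 (AT4G14130) differed by -1.38 ± 0.11 and -1.78 ± 0.15. XTH17, XTH18 and XTH19 are near-identical in sequence, so their probes may share signal. XTH33 (AT1G10550) and XTH23 (AT4G25810), chosen after their values were seen, had the widest differences, 4.84-fold and 4.14-fold lower in arf2 (both adjusted p = 0.00139). XTH33 read -3.14, -3.13 and -2.48 against -0.83, -0.64 and -0.45. Higher in arf2 were XTH25 (1.15 ± 0.11, adjusted p = 0.00196), EXPB1, EXLB1, EXPA15 and EXPB3, by 0.98, 0.68, 0.58 and 0.48, also chosen after their values were seen. The count was 15 without arf2 replicate 2 and 8 with slide as a block, all lower in arf2 and among them XTH15, XTH17, XTH18 and XTH19.

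**Figure D5:**
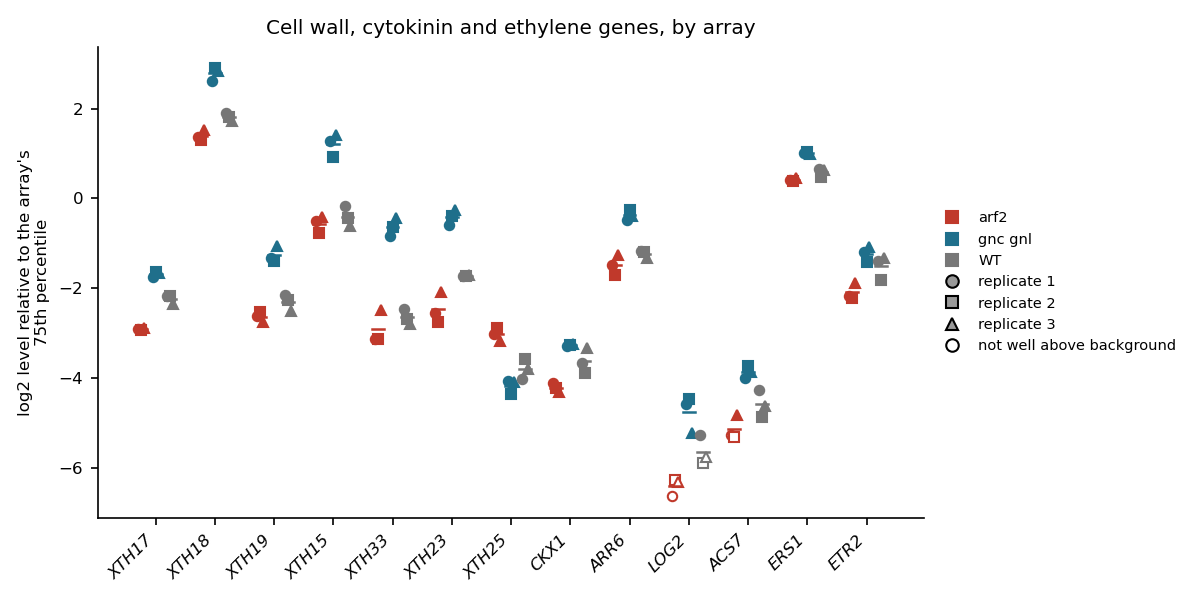
Log2 level of 7 XTH, 3 cytokinin and 3 ethylene genes relative to the array's 75th percentile (vertical axis) in each array of arf2, gnc gnl and, for reference, WT. Symbols mark replicates, open symbols spots not well above background, lines means; every gnc gnl array lay above every arf2 array except for XTH25, where the order was turned. These genes were picked by smallest p or after their values were seen, and arrays did not overlap for 45.9% of all genes.

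Several root genes differed in the same direction. Of 22 tested genes of root tissues, 11 were lower in arf2 and none higher, beside 13.4% and 12.1% of all genes, with a median of -0.52. Above 0 lay 3 members, the highest at 1.14, and none of these passed. The fit over all 12 arrays gave 12 lower and 1 higher. Under normexp background correction 6 passed, all lower, and the median was -0.26. PRP3 (AT3G62680), a root hair wall protein, read -3.36, -3.96 and -3.78 in arf2 against -1.83, -1.81 and -2.49 in gnc gnl (-1.66 ± 0.23, adjusted p = 0.00477). RSL4 (AT1G27740), the factor that sets root hair growth, read -2.45, -2.97 and -3.07 against -1.22, -1.25 and -1.85 (-1.39 ± 0.23, adjusted p = 0.00772). EXPA7 (AT1G12560), a root hair expansin, differed by -1.27 ± 0.21, and WOX5 (AT3G11260), of the root stem cell niche, was at least 1.53-fold lower in arf2, a difference of -0.03 under normexp background correction. WOX5 met the filter on dim probes through gnc gnl alone. PYK10, SHR and GPAT5, also root-expressed and chosen after their values were seen, did not pass, with differences of -0.10, -0.03 and -0.04. Over 13 root markers, 4 of 12 tested were lower in arf2, 1 (WOX5) was not well above background on any arf2 array, and the summed signal was 89.4 to 96.5 times the 75th percentile in arf2 and 95.6 to 103 times in gnc gnl. The part of root tissue in the cytokinin, wall and phosphate differences was not tested. The list count was 4 and 6 without arf2 replicate 2 or 3, 5 and 7 without gnc gnl replicate 1 or 2, and 3 with slide as a block, among them PRP3 and RSL4.

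Phosphate starvation genes leaned toward gnc gnl. Of 27 tested, 7 were lower in arf2 and 2 higher, beside 13.4% and 12.1% of all genes. The median of -0.66 was the lowest of the lists. PAP10 (AT2G16430), a secreted acid phosphatase, read 1.51, 1.48 and 1.53 in arf2 against 2.19, 2.08 and 2.1 in gnc gnl (-0.62 ± 0.07, adjusted p = 0.00302). RNS1 (AT2G02990), a ribonuclease induced by phosphate shortage and wounding, read -1.50, -1.47 and -0.99 against 0.24, 1.15 and 0.52, a 3.89-fold difference (adjusted p = 0.00388). The phosphate transporter gene PHT1;8 (AT1G20860) was at least 2.56-fold higher in arf2. PHT1;5 (AT2G32830), a second transporter, differed by -0.64 ± 0.15, and its sign turned to 0.16 under normexp background correction. PHT1;8 met the filter on dim probes through arf2 alone and PHT1;5 through gnc gnl alone. Without arf2 replicate 1 the list median was -0.42 and 3 members passed, and 4 and 5 passed without gnc gnl replicate 1 or 2 and 4 under normexp background correction. With slide as a block 2 passed (PAP10 and RNS1).

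Heat shock and touch genes were the stress lists described. Of 16 heat shock genes tested, 7 were higher in arf2 and 1 lower, beside 12.1% and 13.4% of all genes, with a median of 0.44. DREB2A (AT5G05410), a factor of drought and heat responses, read -1.14, -0.94 and -0.93 in arf2 against -2.02, -1.78 and -1.95 in gnc gnl (0.91 ± 0.10, adjusted p = 0.00252). HSP70B (AT1G16030) and HSP70 (AT3G12580), both chaperones, differed by 0.84 ± 0.15 and 0.69 ± 0.13, and the factor HSFA7A (AT3G51910) was the member lower in arf2 (-1.02 ± 0.19, adjusted p = 0.0115). Of 20 touch and wound genes 5 were lower in arf2 and none higher, with a median of -0.26; the share of calls lies near the 25.5% of all genes, and 2 passed under normexp background correction. CAF1A (AT3G44260), a deadenylase induced by wounding and touch, read -2.04, -2.05 and -1.43 against -0.67, -0.87 and -0.70 (-1.09 ± 0.18, adjusted p = 0.00759). TCH2 (AT5G37770), a calmodulin-like touch gene, differed by -0.52 ± 0.12, and LOX4 (AT1G72520) by -0.59 ± 0.13, a sign that turned to 0.065 under normexp background correction. LOX4 met the filter on dim probes through gnc gnl alone, the genotype in which it was high. Of the heat shock genes 4 passed without arf2 replicate 2, and of the touch genes 2, 2 and 8 without arf2 replicate 1, 2 or 3. With the slide block DREB2A was the gene of both lists that passed.

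Gibberellin and flowering genes differed in both directions. Of 26 gibberellin genes tested, 4 were higher and 1 lower in arf2, with a median of -0.03, a smaller share than the 25.5% of all genes. The fit over all 12 arrays gave 6 higher and 8 lower. The DELLA repressors RGL3 (AT5G17490) and RGL2 (AT3G03450) differed by 0.74 ± 0.11 and 0.77 ± 0.16, and GA3OX1 (AT1G15550), which makes active gibberellin, by 0.75 ± 0.13. The receptor gene GID1A (AT3G05120) was lower in arf2 (-0.41 ± 0.09, adjusted p = 0.0194), and the DELLA genes GAI and RGA, chosen after their values were seen, did not pass, at 0.17 and 0.14. Of 20 flowering-time genes 4 were higher and 4 lower, beside 12.1% and 13.4% of all genes. SOC1 (AT2G45660), a promoter of flowering, read 0.52, 0.35 and 0.28 in arf2 against -0.43, 0.02 and -0.34 in gnc gnl (0.63 ± 0.14, adjusted p = 0.0185), and the repressor SVP (AT2G22540) was also higher in arf2, by 0.44 ± 0.08. TEM1 (AT1G25560) and TOE2 (AT5G60120), repressors of flowering, were lower in arf2, with differences of -0.81 ± 0.14 and -0.64 ± 0.10. FLC, chosen after its values were seen, did not pass, at 0.24 ± 0.08 (adjusted p = 0.0664). Of the gibberellin genes 2 passed without arf2 replicate 2, and of the flowering genes 4 and 2 without arf2 replicate 1 or 2, 4 without gnc gnl replicate 3 and 5 under normexp background correction. Under the slide block RGL3 was the gene of both lists that passed.

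Regulators of leaf ageing, growth and stomata included several clear single differences. NAP (AT1G69490), a NAC factor that promotes leaf senescence, read 1.55, 1.61 and 1.68 in arf2 against -0.31, -0.09 and -0.40 in gnc gnl, 3.68-fold higher in arf2 (1.88 ± 0.10, adjusted p = 3.53e-04). ORE1 (AT5G39610), another senescence NAC factor, was lower in arf2, reading -1.01, -0.99 and -0.69 against -0.12, 0.23 and 0.15 (-0.98 ± 0.13, adjusted p = 0.00467). Of 13 senescence and chlorophyll breakdown genes tested, 2 were higher and 3 lower, beside 12.1% and 13.4% of all genes. CYP78A5 (AT1G13710), a P450 that promotes organ growth, and ARGOS (AT3G59900), an auxin-induced organ size gene, were lower in arf2, with differences of -0.88 ± 0.12 and -1.07 ± 0.17, while BB (AT3G63530), a ubiquitin ligase that limits organ size, was higher by 0.57 ± 0.10. These were the 3 of 10 organ growth genes that passed, a share near the 25.5% of all genes. EPFL9 (AT4G12970), the secreted peptide stomagen that promotes stomatal formation, read 0.07, 0.23 and 0.32 against -0.86, -0.73 and -0.58 (0.93 ± 0.11, adjusted p = 0.00278), the 1 gene of 10 in the stomatal list that passed. That is a smaller share than over all genes. The 6 stomatal markers, none of which passed, summed to 3.86 to 4.25 times the 75th percentile in arf2. In gnc gnl replicates 1, 2 and 3 the sum was 3.73, 3.08 and 1.17 times. A missing value adds nothing to such a sum, so the low sum of replicate 3 is not read as a fall. The mean level of the tested stomatal list was -1.72 and -1.74 in gnc gnl replicates 2 and 3. NAP, CYP78A5 and EPFL9 passed with slide as a block as well. The senescence count was 3 and 2 without arf2 replicate 1 or 2 and 8 without gnc gnl replicate 2.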

How the data were processed

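Cy3-labelled cRNA was hybridised to one-colour Agilent arrays, per the labels' protocols. The deposited files give a linear intensity for each spot, which the scanner software had background-subtracted within the array, per the file headers. That software was Feature Extraction 10.7.3.1 from Agilent, per the submitters' processing notes. No scaling between arrays stands in the headers, and the value table deposited for the series differed from the scanner intensity in 0 cells.

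Control and outlier spots were left out of the 45220 spots per array, and spots of 1 probe were averaged. The deposited intensity was divided by the array's 75th percentile and taken to log2. Of 43603 probes 34285 carried a locus (25383 loci). Symbols came through the locus from an annotation of assembly TAIR10.1, whose coordinates were not used because the array design is older. The probe with the highest mean over the 6 arrays stood for a gene. Testing required it to be well above background in the whole of 1 genotype or both, with at least 2 values in each, which left 18748 genes. A gene that met this in 1 genotype only entered the test through that genotype, and it still counts in its list. Outlier removal left 351 values missing, and a gene with a missing value was fitted on the others. Of 1290 genes that passed and had several tested probes, 61 had probes that disagreed in sign.

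A model with 1 mean per genotype was fitted to the 6 arrays (limma 3.58.1, R 4.3.3, moderated by empirical Bayes, 4 residual degrees of freedom). P-values were adjusted by Benjamini-Hochberg over all tested genes, with a threshold of 0.05. The number of arrays limits the precision, and the median SE was 0.107. In simulated data for this comparison (18748 genes, 50 changed at each size), 13, 41, 48 and 50 were recovered at log2 changes of 0.5, 1, 2 and 3, with 12 false calls. The simulated arrays carried independent noise and no slide effect, so these false calls leave out any that slide could add. Where no array of a genotype was well above background, the fold is a lower limit. It sets the brighter mean against a floor on each dim array, which is the probe's own signal or the lowest signal well above background there, whichever is higher.

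The comparison and 30 gene lists (660 genes, 605 tested) were chosen with earlier results of these data known, and no list was tested. Named were ARF2, GNC and GNL, the 10 largest differences each way among genes that passed, did not overlap and were above background on all 6 arrays, the 6 largest bounds each way, and up to 4 members with the smallest p of each list. Others are said to be chosen after their values were seen. One gene of the ethylene list is not reported here by name.

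Alternatives were quantile normalization, median scaling, normexp background correction (offset 50, on the median spot signal), dropping or tightening the filter on dim probes, outlier spots kept, every probe tested on its own, a gene's probes averaged, all 12 arrays, slide as a random or fixed block, the replicate number as a block, an intensity-dependent prior, weights per array, leaving out each array, and a log2 difference of at least 1. Figures were drawn with matplotlib 3.10.9.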

Additional observations from a re-analysis of the deposited data

Results flagged for a closer look

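Probes without a locus identifier entered none of the comparisons above. Of 9318 such probes, 3106 met the filter on dim probes, and 704 of those (22.7%) differed between arf2 and gnc gnl in limma at an adjusted p under 0.05, 498 higher in arf2 and 206 lower. They drew attention because they hold differences in data that the comparison of named genes left unused, and they carry no gene name here.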

How the results depend on the processing

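Of the 4784 genes that differed (2272 higher in arf2, 2512 lower, 217 in the lists), the count moved by more than 1.5 times under these settings: normexp background correction 2829 (1267 lower), no filter on dim probes 8007 (5453 higher), slide as a random block 7315 (3535 higher, 3780 lower), slide as a fixed block over all 12 arrays 630 (284 higher, 346 lower, 37 in the lists), and a log2 difference of at least 1, 906 (364 higher, 542 lower, 70 in the lists). All 12 arrays gave 3417 higher. Leaving out 1 array gave 1753 to 4121 genes (808 to 1917 higher, 945 to 2204 lower, 98 to 197 in the lists), lowest without arf2 replicate 2. The share of calls higher in arf2 was 47.5%, and 68.1% without the filter. With the replicate number as a block, 3085 genes passed (1338 higher); the numbers do not pair the samples, since deviations of same-numbered arrays correlated at 0.018, -0.17 and 0.037. Of 135 named genes that passed, none reversed except under normexp: GATA16 (0.085), IAA31 (0.11), PHT1;5 (0.16) and LOX4 (0.065). Among named genes that had not passed, MYB111 (0.11) and PR5 (0.019) reversed under normexp, and VSP2 with the mean of all probes (0.30) and without gnc gnl replicate 2 (-0.36 to 0.084 over the single arrays left out). With slide as a fixed block 46 of the 135 passed and 89 did not. The causes were not tested. Quantile normalization, median scaling, the stricter filter, the other probe rules, outlier spots kept, the intensity trend and array weights left the total within 1.5 times. Signals near background limit the depth: 242 tested genes have only a bound.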

Other observations

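Clock, nitrogen, glucosinolate and flavonoid genes belong to lists not described above. Of 22 clock genes tested, 5 were higher in arf2 and 2 lower, beside 12.1% and 13.4% of all genes, with a median of 0.07. RVE1 (AT5G17300), a morning MYB factor that links the clock to auxin, read 2.41 and 2.69 in the 2 arf2 arrays with a value against 1.54, 1.43 and 1.43 in gnc gnl (1.08 ± 0.12, adjusted p = 0.00366), and it also passed with slide as a block. PRR3 (AT5G60100), a pseudo-response regulator, differed by 1.23 ± 0.15, BOA (AT5G59570) by 0.72 ± 0.10 and LNK1 (AT5G64170) by 0.49 ± 0.08. PRR3 met the filter on dim probes through arf2 alone, the genotype in which it was high. Of 25 nitrogen genes 4 were higher in arf2 and 6 lower, beside the same shares of all genes. LBD38 (AT3G49940), a repressor of nitrate-responsive genes, read 1.85, 1.77 and 2.44 against 3.15, 3.05 and 3.48 (-1.21 ± 0.20, adjusted p = 0.00831), and the nitrate transceptor gene NRT1.1, chosen after its values were seen, differed by -0.45 ± 0.11. Of the clock genes 4 passed without arf2 replicate 2, and of the nitrogen genes 5 and 3 without arf2 replicate 1 or 2 and 5, 4 and 3 without gnc gnl replicate 1, 2 or 3. With slide as a block 1 nitrogen gene passed, and LBD38 did not (adjusted p = 0.154 in limma).

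Of 26 glucosinolate genes, 8 were lower in arf2 and 2 higher, beside 13.4% and 12.1% of all genes, with a median of -0.07. MAM3 (AT5G23020), which elongates the methionine-derived chains, read 0.16, 0.06 and -0.04 in arf2 against 1.51, 1.54 and 1.33 in gnc gnl (-1.40 ± 0.10, adjusted p = 6.32e-04). The breakdown genes TGG2 (AT5G25980), a myrosinase, and ESP (AT1G54040), which turns the products toward nitriles, went the other way, by 0.93 ± 0.13 and 1.36 ± 0.24. MAM3 and TGG2 passed with slide as a block too. The count was 5 without arf2 replicate 2 and 6 without gnc gnl replicate 2 or 3. Of 22 flavonoid genes 1 passed, TT7 (AT5G07990), the flavonoid hydroxylase, higher in arf2 by 0.96 ± 0.13 (adjusted p = 0.00498), a smaller share than the 12.1% of all genes. It did not pass with slide as a block (adjusted p = 0.18 in limma). None of 13 hypoxia genes passed in limma, with a median of -0.20, while 2 did without gnc gnl replicate 2, and of 9 defence genes EDS1 was lower and PAD3 higher in arf2, by -0.39 ± 0.08 and 0.49 ± 0.12, with 0 calls left in limma without arf2 replicate 2, under normexp background correction or with slide as a block. These defence calls are a share near the 25.5% of all genes.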
